A study of Mus musculus with 4 samples.

Results

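Irf1 encodes interferon regulatory factor 1, a DNA-binding protein that switches on interferon-type genes. It was described here through every probe set that the array annotation gives to Irf1 alone. There was 1 such probe set among 45037 that were not controls, and Irf1 was 1 of 16274 genes analysed. The RNA came from 3T3 fibroblasts, an immortal cell line of mouse embryonic origin. All 4 samples had been held overnight in 0.5% serum. The basal sample was then harvested, and the others received the inflammatory cytokine TNF (tumour necrosis factor) during 0.5, 2 or 12 h. The labels give 10 ng/ml TNF for 0.5 h and 12 h. For 2 h the treatment text repeats that of the basal sample and states no concentration, so the group rests on the sample's title and source. No treatment, genotype or clone beyond these is given, and no untreated array matched to the later times was analysed here, so effects of TNF and of added time in low serum cannot be told apart.

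TNF acts through its receptors to free the transcription factor NF-kB from inhibitors of the IkB family. Irf1 is among the genes that NF-kB switches on directly, and it is also switched on after interferon. The protein is short-lived and binds elements with repeated GAAA in genes of guanylate-binding proteins, class I antigen presentation and antiviral defence. In this way it can pass an NF-kB signal on to genes of the interferon type. Its relative Irf2 binds the same elements and mostly opposes it.

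With 1 array per time there is no spread between replicates, 0 tests were run, and all values below describe these 4 arrays. Each value is a deposited linear signal, made by an algorithm and scaling that the labels do not describe. "Rose" and "fell" mean a ratio of at least 2-fold. A floor was set at the 30th percentile of all values (9.07). Where the lower signal of a ratio was under it, the ratio is a bound and is written "at least". Values for further probe sets of a gene, and ranges over its probe sets, were taken with no floor and can rest on low signals. Counts were repeated with a higher floor at the 75th percentile (102), which 7314 genes exceeded on some array. Over all probe sets the log2 ratio to basal had a median of -0.05 (0.5 h), -0.12 (2 h) and -0.20 (12 h), so a gene that kept pace with the median lay below its basal signal. Of 10 fibroblast markers 8 reached the higher floor, among them Col1a1, Col3a1 and Vim; Thy1 and Lum did not, with at most 14.6 and 20.7. Of 10 macrophage and leukocyte markers only Cd14 reached it (at most 111), and the summed signal of that list was 251, 294.5, 259 and 272 on the basal, 0.5 h, 2 h and 12 h arrays. None of 7 endothelial and 7 epithelial markers reached it, and Ptprc, Itgam and Cd3e were under the lower floor on all 4 arrays.

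The first question was how the Irf1 signal ran over the time course. Basal cells had a signal of 150.7, and cells given TNF had 949.5 after 0.5 h, 621 after 2 h and 284 after 12 h. The highest value was that of the earliest TNF array, and every TNF array lay above the basal one. In RNA from a whole culture, fewer expressing cells and less RNA per cell cannot be told apart. Irf1 rose 6.30-fold at 0.5 h (log2 ratio 2.66) and was 4.12-fold above basal at 2 h (2.04). At 12 h the ratio to basal was 1.89 (log2 0.92), short of the 2-fold rule. After scaling the arrays to each other this last log2 ratio lay between 1.07 and 1.16, past the rule, so the position of Irf1 at 12 h against the 2-fold line depends on the scaling.

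The decline after the peak was measured between neighbouring TNF arrays, which do not involve the basal array. The signal at 2 h was 1.53 times lower than at 0.5 h (log2 ratio -0.61), which is short of 2-fold. From 2 h to 12 h Irf1 fell 2.18-fold (-1.13), one of the 3.13% of all genes that fell in that step. Averaged over the time between arrays, the log2 signal fell by 0.41 per hour between 0.5 and 2 h and by 0.11 per hour between 2 and 12 h. Of the 799 signal units gained by 0.5 h, 58.9% were still present at 2 h and 16.7% at 12 h. These slopes are net changes of RNA level; RNA stability, which the series title names, was not measured by these arrays.

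**Figure D1:**
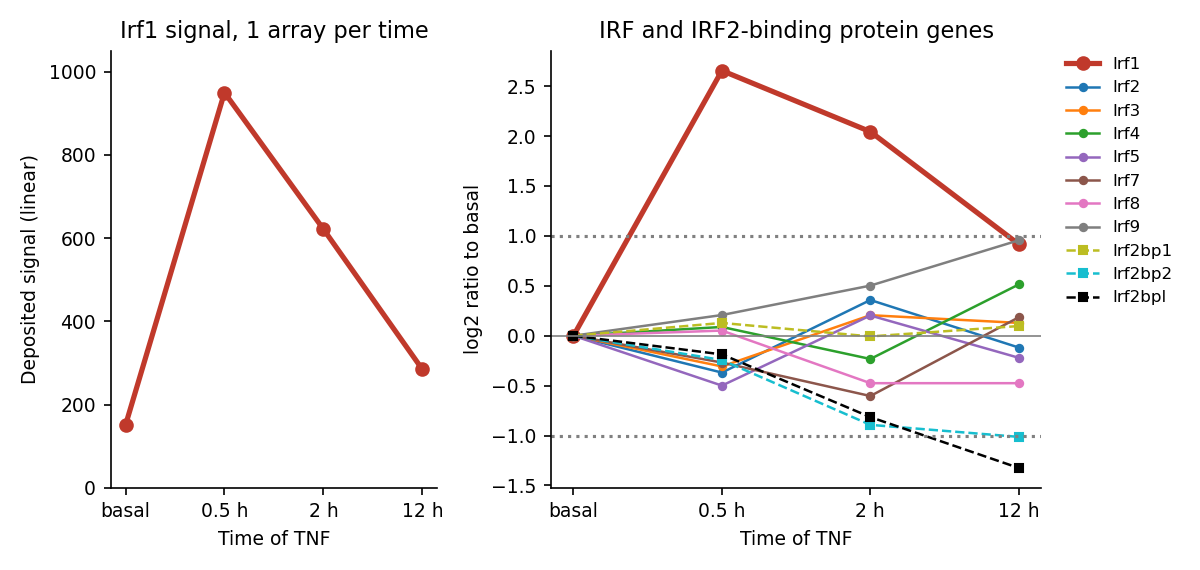
Left, deposited Irf1 signal (linear axis) on the basal array and at 0.5, 2 and 12 h of TNF; right, log2 ratio to basal of Irf1, the 7 other IRF genes analysed (circles) and the 3 genes of IRF2-binding proteins (dashed, squares), with dotted lines at 2-fold. Times are spaced evenly, each point is 1 array, and each gene is shown by its probe set of highest mean log2 signal. Irf1 stands at 2.66 at 0.5 h, and no other IRF gene reaches 2-fold in these values as deposited (Irf9 does at 12 h after scaling). Another probe set of Irf3, not drawn, passed 2-fold at 0.5 h and 2 h with no floor applied.

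At 0.5 h Irf1 had rank 11 among 16274 genes by its increase, and rank 5 among the 7314 genes with the higher floor. The 4 genes ahead of it with the higher floor were the chemokine genes Cxcl1 and Ccl2 and the NF-kB regulators Tnfaip3 and Nfkbiz. By 2 h its rank was 33 of 16274 (12 with the higher floor), and by 12 h it was 564 (47 with the higher floor). The scatter of probe sets of like signal gives a scale for these ratios. Among 5184 probe sets with a mean signal between 199 and 798, the scaled median absolute deviation of the log2 ratio to basal was 0.14, 0.18 and 0.29 at the TNF times. Ratios at least as far from 0 as that of Irf1, counting its own, were seen for 7 of them after 0.5 h, 12 after 2 h and 209 after 12 h. The 99th percentile of their log2 ratios was 0.47, 0.58 and 0.79 at the 3 times, and Irf1 lay above it each time, by far the least at 12 h.

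The promoter of Irf1 is shown because it holds letters that fit both known routes into the gene, NF-kB and interferon signalling. The sequence is the RefSeq window on chromosome 11 (GRCm38.p6, chr11:53769764-53770063, plus strand), from 250 bases before to 50 after the transcription start, and capitals mark matches to the motifs searched.
Irf1 promoter: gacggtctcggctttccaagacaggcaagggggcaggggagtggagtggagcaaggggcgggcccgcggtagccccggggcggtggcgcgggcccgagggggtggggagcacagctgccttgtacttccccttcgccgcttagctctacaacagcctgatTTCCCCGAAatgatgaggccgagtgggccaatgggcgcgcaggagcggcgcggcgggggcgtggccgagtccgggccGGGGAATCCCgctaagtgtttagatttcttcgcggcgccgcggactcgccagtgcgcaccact
Each motif was searched on both strands: the NF-kB consensus, the interferon-gamma activated site (GAS, TTCNNNGAA) and the IRF element (GAAA, any 2 bases, GAAA). The first capitals, TTCCCCGAA at positions -90 to -82 from the start, match the GAS motif. The second, GGGGAATCCC at -13 to -4, match the NF-kB consensus. No IRF element was found in this window, and a second RefSeq start of Irf1, at a window starting at base 53770223, held none of the 3 motifs. Of 32851 promoter windows of the same length, 8.46% held the NF-kB consensus, 8.30% the GAS motif and 3.44% the IRF element. A match is a run of letters and does not show binding.

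On the NF-kB side, the list of TNF receptors and the NF-kB chain had 20 of its 23 genes analysed. Of these, 4 rose at 0.5 h, 7 at 2 h and 6 at 12 h, and 0 fell; over all genes 2.57%, 2.59% and 2.81% rose at these times. The genes that rose encode feedback inhibitors, late subunits and apoptosis inhibitors. The receptor gene Tnfrsf1a, which carries the TNF signal in fibroblasts, had signals of 529, 464, 509 and 437 on the basal, 0.5 h, 2 h and 12 h arrays, and the main activating subunit gene Rela had 591, 685, 643 and 753. Neither moved by 2-fold. Nfkbie, encoding IkB-epsilon, had 36.5 in basal cells and 86.4, 885 and 576 at the 3 TNF times, a maximum at 2 h of 24.3-fold. Relb, a subunit of the slower non-canonical pathway, had 20.2 in basal cells and 46.4, 138 and 110 at the TNF times, and its partner Nfkb2 had 83.1, 113, 240.5 and 235.5. Nfkbie and Relb were at their highest 2 h after TNF, later than Irf1. Nfkb2 was slightly higher at 2 h than at 12 h as deposited, but after each of 3 scalings its 12 h ratio was the higher (log2 1.66 to 1.74).

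On the interferon side, of 14 genes of interferon receptors and JAK-STAT signalling that were analysed, 0 rose at any time, against 2.57%, 2.59% and 2.81% of all genes. Socs3 alone fell, at 12 h, when 5.18% of all genes fell, so both counts are near the background. Ifnar1, a receptor chain for type I interferon, had 292, 307, 310 and 299 on the basal, 0.5 h, 2 h and 12 h arrays, and Jak1 had 1089, 1011, 1018 and 889.5. Ifngr1, the ligand-binding chain for type II interferon, had 148, 101, 175 and 239 (log2 ratio 0.69 at 12 h). The feedback inhibitor Socs3 had 266 in basal cells and 173, 337 and 131 at the TNF times; its log2 ratio at 12 h was -1.02 as deposited and between -0.87 and -0.78 after scaling.

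No interferon gene reached the higher floor. Ifnb1, the type I interferon that fibroblasts make, had 14.6 in basal cells and 7.15, 9.51 and 21.5 at the TNF times. Its log2 ratio at 12 h was 0.55 over basal and 1.18 over 2 h. Ifng and Ifna2 were under the floor on all 4 arrays. Ifna1 lay between 15.2 and 22.1 and Ifna4 reached 14.1, while Ifnab left the floor to 22.6 at 0.5 h (at least 2.49-fold) and was at 3.71 at 12 h.

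Of the other 7 IRF genes analysed, each by its probe set of highest mean log2 signal, 0 rose and 0 fell at any of the 3 times. With 2.57%, 2.59% and 2.81% of all genes rising at these times, a count of 0 among so few genes is near the background. Irf9, the DNA-binding part of the complex that type I interferon activates, had signals of 62.8, 72.5, 88.9 and 122 on the basal, 0.5 h, 2 h and 12 h arrays. It was higher on each later array, with a log2 ratio of 0.96 at 12 h as deposited and 1.11 to 1.17 after scaling. Irf2 had 53.2, 41.2, 68.2 and 49.0, with log2 ratios of -0.37, 0.36 and -0.12 at 0.5, 2 and 12 h. Its 12 h ratio turned positive after scaling, at most 0.07. Irf7, which amplifies the type I interferon response, had 29.2, 24.2, 19.2 and 33.1, and its log2 ratio at 12 h was 0.19.

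Irf3, a factor that is activated as a protein by viral sensing, had 105, 84.9, 121 and 115 on its strongest probe set. Its 4 probe sets ranged from -0.31 to 2.78 (log2, no floor) at 0.5 h and from 0.21 to 3.77 at 2 h, and they disagree on its course. Irf5 went no further than -0.50, and Irf4 and Irf8, factors of immune cells, stayed at 15.2 or lower.

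The IRF2-binding proteins are corepressors first found through Irf2. Irf2bp1 had 94.0, 103, 93.5 and 100.5 on the basal, 0.5 h, 2 h and 12 h arrays. Irf2bp2 had 619, 523, 333 and 306.5, and Irf2bpl had 515, 452, 293 and 206. At 12 h Irf2bpl fell by 1.32 on the log2 scale and Irf2bp2 by 1.01, which made 2 of 3 against 5.18% of all genes that fell. After scaling the value for Irf2bp2 lay between -0.86 and -0.78, short of the rule. The 3 probe sets of Irf2bpl gave -1.80 to -0.15 at 12 h, and the 4 of Irf2bp2 -1.35 to -0.73, all 7 below 0 as deposited.

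The genes whose time course was most like that of Irf1 were sought among 7313 genes that reached the higher floor on at least 1 array, by the Euclidean distance over the 3 log2 ratios to basal. Such a distance depends on the size of the ratios as well as on their order in time. The 10 nearest were Lif, Tnfaip3, Cxcl5, Nfkbia, Nfkbiz, Ier3, Rnd1, Gadd45b, Vcam1 and Zfp36, at distances from 0.28 to 1.87. With quantile normalization 9 of the 10 were found again. Lif, a cytokine of the interleukin-6 family, was closest, ahead of Tnfaip3 at 0.73, with signals of 36.0, 222, 122 and 68.8 on the basal, 0.5 h, 2 h and 12 h arrays, though its second probe set gave -0.51 (log2) at 0.5 h. The log2 ratios at the TNF times were 2.66, 2.04 and 0.92 for Irf1 and 2.63, 1.76 and 0.93 for Lif, whose 12 h ratio also passed 2-fold after scaling (at most 1.15). Tnfaip3, encoding a deubiquitinating inhibitor of NF-kB, had 268, 2521, 1463 and 568, a course of the same order of arrays at a larger amplitude (3.24, 2.45 and 1.09).

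**Figure D2:**
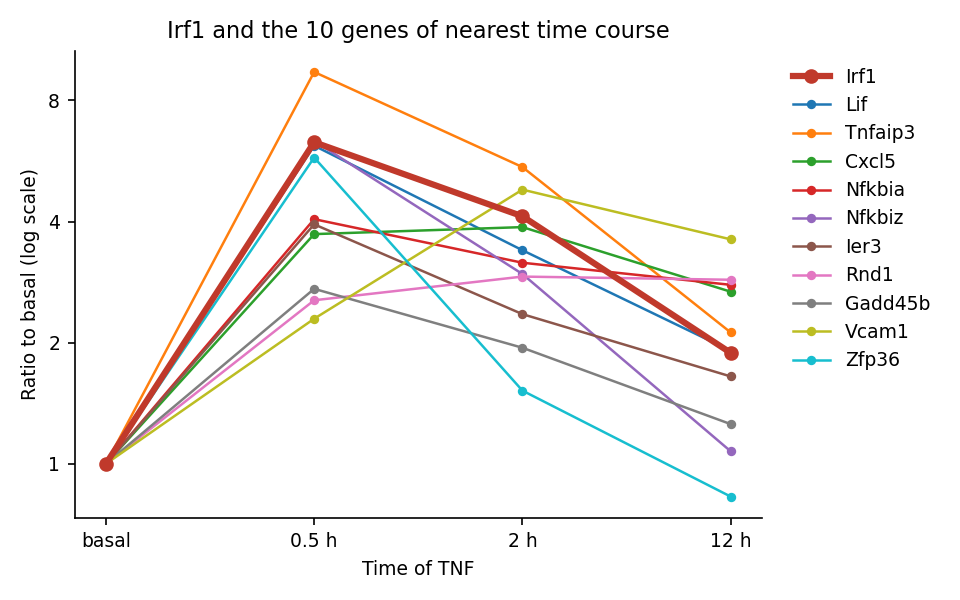
Ratio to basal (log axis) of Irf1 and the 10 genes at the smallest distance from it, on the basal array and at 0.5, 2 and 12 h of TNF, with 1 array per time and even spacing. Lif overlies Irf1 most closely, with log2 ratios of 2.63, 1.76 and 0.93, while Zfp36 had dropped to 0.61 by 2 h.

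The other near neighbours departed from Irf1 in named ways. Nfkbiz, an atypical IkB protein that works in the nucleus, matched the 0.5 h ratio (2.67) and then dropped further, with signals of 132, 836, 390 and 141.5 on the 4 arrays in time order. Zfp36, encoding the mRNA-destabilising protein tristetraprolin, had a like ratio at 0.5 h (2.53) and 0.61 at 2 h. Nfkbia, encoding IkB-alpha, had a lower ratio at 0.5 h (2.02) and a higher one at 12 h (1.48), with signals of 1843, 7476, 5826 and 5134. Vcam1, an adhesion molecule, peaked at 2 h with 1293, against 269 in basal cells. Cxcl5 and Rnd1 were also highest at 2 h as deposited. Their log2 ratios at the TNF times were 1.90, 1.95 and 1.42 for Cxcl5, and 1.35, 1.55 and 1.52 for Rnd1.

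Of the 10 genes, 6 have a window in the promoter table, and 4 of these hold the NF-kB consensus, against 9.55% of all genes with a window. These 4, Lif, Tnfaip3, Nfkbia and Ier3, are all in the list of early NF-kB genes, so no conclusion is drawn from the count. Stretches of 60 bases around the first match are shown in the direction of transcription (GRCm38.p6), with the NF-kB matches in capitals. They are from chr11:4257365-4257424 (plus strand) for Lif, chr10:19015501-19015560 (minus) for Tnfaip3, chr12:55492642-55492701 (minus) for Nfkbia and chr17:35821596-35821655 (plus) for Ier3.
Lif: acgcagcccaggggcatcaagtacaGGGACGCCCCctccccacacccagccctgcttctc
Tnfaip3: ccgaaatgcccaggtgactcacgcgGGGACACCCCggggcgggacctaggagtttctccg
Nfkbia: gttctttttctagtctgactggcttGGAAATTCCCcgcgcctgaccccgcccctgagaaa
Ier3: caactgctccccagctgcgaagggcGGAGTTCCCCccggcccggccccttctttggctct
The match of Nfkbia lies at -29 to -20 and the one of Irf1 at -13 to -4. Over the list of early NF-kB genes, 10 of 18 windows (55.6%) held the NF-kB consensus and 0 held the IRF element. That list was made of genes known to respond to NF-kB, so no conclusion is drawn from its share.

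The decline was then set beside that of the other early genes. With the higher floor, 24 genes rose at 0.5 h (0.328% of 7314), and 15 of them, Irf1 included, had their highest TNF signal there. Of the 14 others with that peak, only 1 kept more of its gain at 2 h than Irf1 did: the share was 58.9% for Irf1 and 70.7% for Nfkbia. The other 13 ranged down to genes that lay under their basal signal at 2 h, Ier2, Fos and Klf10. Gadd45b (54.8%) and Tnfaip3 (53.0%) came next below Irf1, Nfkbiz stood at 36.7% and Zfp36 at 10.9%. Among probe sets of like signal to Irf1, the 2 h over 0.5 h log2 ratio had a scaled median absolute deviation of 0.17. Shares as close as those of Gadd45b and Tnfaip3 to Irf1 cannot be ordered with 1 array per time. In log2 units per hour between 0.5 and 2 h, the 15 genes ran from -1.62 for Fos to -0.24 for Nfkbia; Irf1 had -0.41, and 2 genes, Nfkbia and Gadd45b, were less steep.

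At 12 h Irf1 stood in the middle of the 24 genes. Of the 14 others, 3 kept more of the gain than its 16.7%: Nfkbia (58.4%), Ier3 (22.1%) and Lif (17.6%). Cxcl1 (16.6%), Gadd45b (14.8%) and Tnfaip3 (13.3%) had nearly the same share. Early genes with a later peak behaved differently: Cxcl10 stood at 365% of its 0.5 h gain at 2 h, and Ccl7 at 216% at 12 h. Irf1 therefore sat between the briefest genes, such as Fos, and those with a higher signal at a later time, such as Cxcl10. In the list of RNA decay factors 2 of 13 rose at 0.5 h, Zfp36 and Zc3h12a, against 2.57% of all genes, and with the higher floor 1 of 12, Zfp36. None of the 13 rose at 2 or 12 h, near the 2.59% and 2.81% of all genes.

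**Figure D3:**
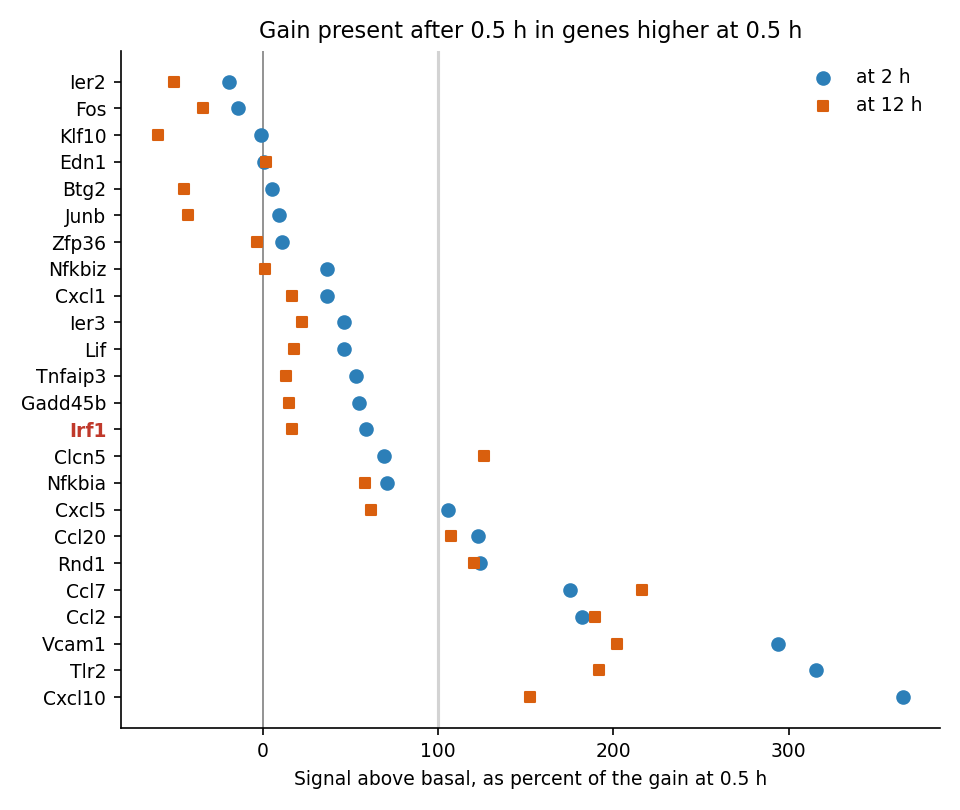
Signal above basal as a percent of the gain at 0.5 h, at 2 h (circles) and at 12 h (squares), for the 24 genes that rose at 0.5 h with the higher floor, 1 array per time. Irf1 (red label) lies at 58.9% and 16.7%. Points past the line at 100 were above the 0.5 h signal, some only slightly, and those left of 0 were under the basal signal.

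The next question was how interferon-type genes, which Irf1 can drive, ran over the same times. The 4 lists of interferon-inducible GTPases, antiviral genes, class I presentation and reported Irf1 targets hold 117 different genes, of which 95 were analysed. Of the 95, 6 rose at 0.5 h (6.32%), 18 at 2 h (18.9%) and 36 at 12 h (37.9%), against 2.57%, 2.59% and 2.81% of all genes. At these times 4, 3 and 3 fell, against 2.97%, 3.62% and 5.18% of all genes. The median log2 ratio of the 95 genes was 0.04, 0.31 and 0.68 at the 3 times, against -0.03, -0.09 and -0.14 over all genes analysed. Of the 95, 42 rose at any time, against 5.98% of all genes, and of these 42, 29 (69.0%) had their highest TNF signal at 12 h, 11 at 2 h and 2 at 0.5 h. Of the 973 genes of the whole array that rose at any time, 35.5% were highest at 12 h. With the higher floor 2, 4 and 9 of 39 rose, against 0.328%, 0.479% and 0.615% of all genes, so the counts rest largely on genes of low signal. The 4 lists were chosen with earlier results of these data known, so their counts and times of highest signal are not independent of these data.

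**Figure D4:**
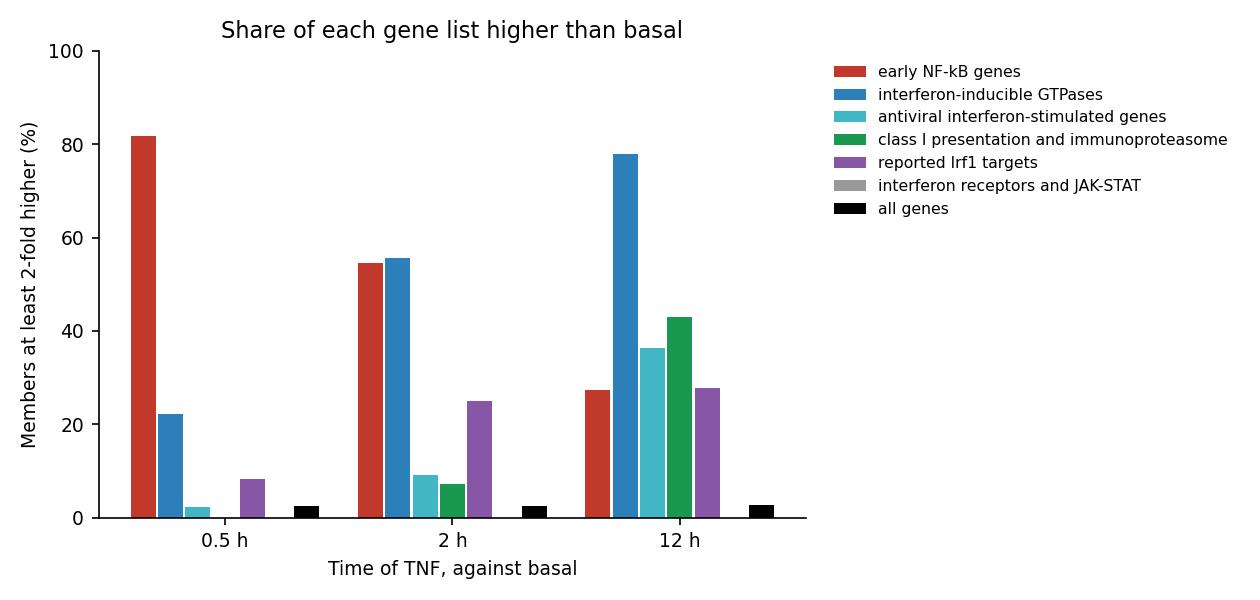
Percent of analysed members of 6 gene lists, and of all genes, at least 2-fold above basal at 0.5, 2 and 12 h of TNF (1 array per time). At 0.5 h the share is 81.8% for early NF-kB genes and 2.27% for antiviral genes; at 12 h it is 27.3% and 36.4%, and 42.9% for class I genes. With the higher floor the 12 h shares are 37.5% for early NF-kB genes and 11.1% for antiviral genes, in the opposite order. No gene of interferon receptors and JAK-STAT signalling rose, so that list has no bar. The lists were chosen with earlier results of these data known, so the share of no list at any time is independent of these data.

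Interferon-inducible GTPases defend the cell against pathogens inside vacuoles. Of 9 analysed, 2 rose at 0.5 h, 5 at 2 h and 7 at 12 h, against 2.57%, 2.59% and 2.81% of all genes. At these times 0 fell, near the 2.97%, 3.62% and 5.18% of all genes. With the higher floor only 1 of 3, Irgm1, rose, at 2 h, when 0.479% of all genes did. Gbp2, a guanylate-binding protein gene, had 9.92 in basal cells and 19.2, 88.6 and 147 at the TNF times. It was higher on each later array and rose 14.8-fold at 12 h. Ifi47 left the floor to 36.8 at 0.5 h and stood at 114 at 2 h and 70.2 at 12 h, at least 12.5-fold above basal at 2 h. Irgm1, a regulator of the immunity-related GTPases, had 171, 181, 350 and 198 on the basal, 0.5 h, 2 h and 12 h arrays, a 2.05-fold rise at 2 h and a log2 ratio of 0.22 at 12 h.

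Genes of class I presentation load peptides for T cells. Of 14 analysed, 0 rose at 0.5 h, 1 at 2 h and 6 at 12 h, against 2.57%, 2.59% and 2.81% of all genes. At these times 0 fell, near the 2.97%, 3.62% and 5.18% of all genes. With the higher floor 0, 1 and 4 of 9 rose, against 0.328%, 0.479% and 0.615% of all genes. Psmb10, an immunoproteasome subunit gene, had 159, 153, 373 and 577 on the 4 arrays in time order, and was the one member to rise at 2 h (2.35-fold). Tapbp, encoding the peptide-loading chaperone tapasin, had 1135, 1192, 1815 and 2946. Erap1, a peptide-trimming enzyme, had 78.5, 70.2, 100.4 and 176, and Psme1, a proteasome activator subunit, had a log2 ratio of 0.73 at 12 h. H2-D1, a class I heavy chain, had 257, 290, 403 and 782. The probe sets of H2-D1 and H2-K1 ranged from -1.41 to 1.89 and from -0.16 to 2.84 at 12 h, and genes this alike in sequence can share probes, so their values are uncertain. B2m, the shared light chain, lay between 5355 and 6079 throughout.

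Of 44 antiviral interferon-stimulated genes analysed, 1 rose at 0.5 h, 4 at 2 h and 16 at 12 h (2.27%, 9.09% and 36.4%). Over all genes 2.57%, 2.59% and 2.81% rose, so the count at 0.5 h is near the background. At these times 2, 1 and 1 fell, near or below the 2.97%, 3.62% and 5.18% of all genes. With the higher floor 0, 0 and 2 of 18 rose, against 0.328%, 0.479% and 0.615% of all genes, the 2 being Bst2 and Ddx58. With the main floor, of the 18 that rose at some time, 15 were highest at 12 h, as were all 6 class I genes that rose. Bst2, encoding the virus-retaining protein tetherin, had 97.9, 99.7, 91.8 and 266 on the basal, 0.5 h, 2 h and 12 h arrays, so only the 12 h array was high (2.72-fold). Xaf1, which promotes apoptosis, had 31.2, 36.5, 43.3 and 132, with the same pattern on this probe set; its other probe set gave 0.79 (log2) at 12 h. Ddx58, encoding the RNA sensor RIG-I, had 92.5, 99.2, 158 and 207, and Parp9 had 46.7, 58.5, 127 and 115. Ifit1, an RNA-binding antiviral protein, rose 3.25-fold to 102 at 12 h, while Ifit3 (154 to 169 on the 4 arrays) did not move and Ifit2 stood at -0.81 (log2) at 12 h.

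Genes reported elsewhere as Irf1 targets, listed from general knowledge and not from a curated source, differed among themselves. Of 36 analysed, 3 rose at 0.5 h, 9 at 2 h and 10 at 12 h, against 2.57%, 2.59% and 2.81% of all genes. At each time 2 of the 36 fell, near the 2.97%, 3.62% and 5.18% of all genes. With the higher floor 2, 2 and 4 of 12 rose, against 0.328%, 0.479% and 0.615% of all genes. Cxcl10, a T-cell chemokine, had 66.6 in basal cells and 535, 1777 and 780.3 at the TNF times, highest at 2 h. Gch1, encoding the first enzyme of tetrahydrobiopterin synthesis, had 30.5, 31.0, 190 and 168, so it was still at its basal level when Irf1 was at its peak. Casp4, an inflammatory caspase, left the floor to 15.8, 83.3 and 160 at the 3 TNF times. Ccl5, a chemokine for T cells, reached 13.6, 165 and 957, at least 105.5-fold above basal at 12 h. Ptgs2, encoding cyclooxygenase-2, went the other way, with 1116, 1574, 712 and 328 on the 4 arrays, and fell 3.41-fold at 12 h.

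**Figure D5:**
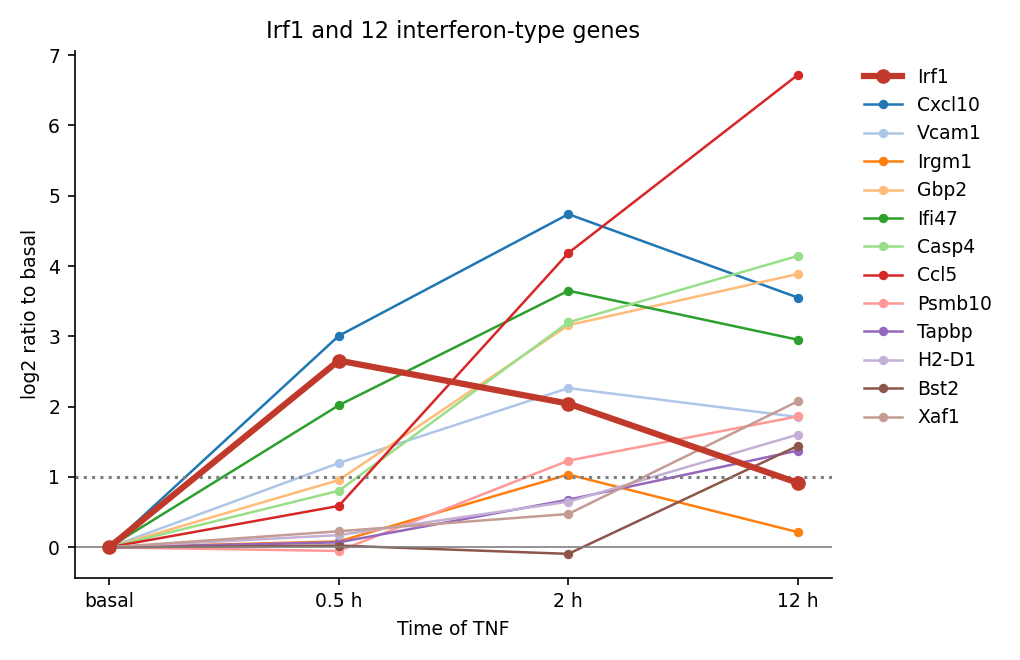
Log2 ratio to basal of Irf1 and of 12 interferon-type genes, with signals under the floor of 9.07 raised to it, on the basal array and at 0.5, 2 and 12 h of TNF (1 array per time, even spacing, dotted line at 2-fold). Irf1 is highest at 0.5 h (2.66), Cxcl10 and Ifi47 at 2 h, and Ccl5, Casp4, Gbp2 and Bst2 at 12 h.

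The signal of Irf1 was thus highest on the 0.5 h array, where few interferon-type genes had risen. It had come down by 12 h, where 36 of 95 were at least 2-fold above basal (9 of 39 with the higher floor). The steps between TNF arrays, which do not use the basal array, were as follows. From 0.5 to 2 h, 16 of the 95 rose and 2 fell, against 2.61% and 2.97% of all genes. From 2 to 12 h, 13 rose and 4 fell, against 2.81% and 3.13% of all genes. With the higher floor, 3 of 39 rose and 1 fell in the step to 2 h. In the step to 12 h, 3 rose and 2 fell, so the step counts too rest largely on genes of low signal. The share over all genes is not given for these steps with that floor. These counts give the order in time; whether Irf1 drives any of these genes was not tested.

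Promoters of the interferon-type genes were searched for the IRF element, to show where a factor of this family could bind. It was present in 31 of 97 windows (32.0%), against 3.44% of all 32851 windows. The 97 windows belong to 81 list genes, some of them not named on the array, such as Gbp5, Tgtp1 and Isg15. By list the count was 9 of 11 windows for GTPases, 14 of 44 for antiviral genes, 4 of 16 for class I genes and 7 of 32 for reported Irf1 targets. Among windows of genes that rose at 12 h 11 of 31 (35.5%) held the element, and among those of genes analysed that did not, 13 of 54 (24.1%). The lists hold many genes known for such elements, and every IRF protein, as well as the interferon-activated complex with Irf9, binds letters of this kind.

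Stretches of 60 bases around the first element are shown for 6 genes named above, picked after their values were seen, in the direction of transcription (GRCm38.p6) with the matches on either strand in capitals. They are from chr3:142620579-142620638 (plus strand) for Gbp2, chr11:48871416-48871475 (minus) for Irgm1, chr5:92349068-92349127 (minus) for Cxcl10, chr8:71537568-71537627 (minus) for Bst2, chr19:34640760-34640819 (plus) for Ifit1 and chr4:40239789-40239848 (minus) for Ddx58.
Gbp2: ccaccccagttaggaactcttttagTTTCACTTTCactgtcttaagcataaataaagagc
Irgm1: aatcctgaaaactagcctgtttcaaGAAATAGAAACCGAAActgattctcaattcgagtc
Cxcl10: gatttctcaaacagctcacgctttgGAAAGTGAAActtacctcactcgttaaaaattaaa
Bst2: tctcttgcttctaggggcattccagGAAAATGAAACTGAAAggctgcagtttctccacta
Ifit1: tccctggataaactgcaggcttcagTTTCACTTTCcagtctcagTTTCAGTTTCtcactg
Ddx58: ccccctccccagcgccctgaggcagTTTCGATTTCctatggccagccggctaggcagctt
Irgm1 and Bst2 hold a pair of overlapping matches and Ifit1 a pair of separate ones. Cxcl10 and Gbp2 also hold the NF-kB consensus in the same window, which Irgm1, Ifit1 and Ddx58 do not. At 0.5 h the log2 ratios were 3.01 for Cxcl10, 0.96 for Gbp2 (1.01 to 1.04 after scaling), 0.08 for Irgm1, -0.45 for Ifit1 and 0.10 for Ddx58. Bst2, with 0.03, holds the NF-kB consensus and a GAS match as well. These 6 genes are examples, and no relation of letters to time is drawn from them.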

How the data were processed

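RNA of 4 samples was measured on Affymetrix Mouse Genome 430 2.0 arrays, from 8 µg of total RNA per the labels' protocols. The files hold deposited intensities on a linear scale; how the authors computed, scaled or filtered them is not stated in the labels. Of 45101 probe sets 64 controls were left out. The platform annotation gave 1 gene for 34945, several for 932, and did not list 9160 of the rest. The probe set of highest mean log2 signal stood for its gene, and 16274 of 18193 genes exceeded the floor. Ratios were taken from the values as deposited, with 1 array per group and no test. Arrays have no counts, so their number limits the precision. The calling code was run on simulated data with known changes, planted at 0.5 h in genes of higher signal only. The simulated scatter was the same at every signal level, so that run does not bear on calls in genes of low signal.

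Members and the 16 gene lists (242 genes, 215 named on the array, 204 analysed) were chosen with earlier results of these data known. Genes named were all IRF, IRF2-binding protein and interferon genes, the 6 largest changes per other list among genes at the higher floor, every member past 2-fold with that floor, and the 10 nearest to Irf1; members of the early NF-kB and interferon receptor lists could be named as context. Other names (Zc3h12a, Tnfrsf1a, Rela, B2m, Ifit2, Ifit3, Il15, Il15ra, marker genes and early genes such as Fos) were chosen after their values were seen. Python 3.11.15, pandas 2.3.3 and limma 3.58.1 (quantile and cyclic loess) were used. Alternatives were other floors, a 3-fold rule, 4 scalings and the mean of probe sets. Promoters came from RefSeq, GRCm38.p6; no build is named for the array, so gene coordinates are not given. A planned comparison of protein sequences was not run.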

Additional observations from a re-analysis of the deposited data

How the results depend on the processing

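The cause was not tested for any change given here. The Irf1 ratio at 12 h over basal (log2 0.92) passed 2-fold with every scaling tried: 1.07 with median centring, 1.15 with quantile normalization, 1.16 with cyclic loess and 1.09 with reference genes. The other 4 Irf1 ratios and both shares of the 0.5 h gain kept their direction and side of 2-fold, or moved little, under the scalings run; the share reached 63.0% at 2 h and 22.2% at 12 h. The count of interferon-type genes that rose depended on the floor. At 0.5 h, 6 rose, against 13 with a floor at the 20th percentile, 16 with none, 2 at the 50th or 75th percentile and 3 under a 3-fold rule. At 2 h, 18 rose, against 4 at the 75th percentile and 10 under the 3-fold rule. At 12 h, 36 rose, against 9 at the 75th percentile and 19 under the 3-fold rule; median centring, quantile normalization, loess and the mean of probe sets gave 28 to 41. Over all genes, the number that rose at 12 h ran between 45 and 1622 and the number that fell between 126 and 2338 across the alternatives; at 0.5 h these ranges were 24 to 1643 and 1 to 1754, and at 2 h 35 to 1604 and 12 to 1999. Irf1 has 1 probe set, so other probe sets could not be compared. Calls of Gadd45b at 2 h, Gbp2 at 0.5 h and of Ier2, Irf2bp2, Irf9, Lif and Socs3 at 12 h also crossed 2-fold with scaling. No paired analysis was possible because each group has 1 array.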

Other observations

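The cytokine Il15 and its receptor chain Il15ra, both in the list of reported Irf1 targets and picked after their values were seen, were both highest at 2 h. Il15, which sustains natural killer and memory T cells, had a signal of 27.5 in basal cells and 44.8, 86.5 and 44.8 at the TNF times. Il15ra, which presents it to neighbouring cells, was under the floor in basal cells and at 41.7, 86.4 and 32.3 at the 3 TNF times, at least 9.52-fold above basal at 2 h. Both maxima came after that of Irf1, and both signals stayed under the higher floor of 102. The 2 probe sets of Il15ra gave 1.97 and 4.39 (log2, no floor) at 2 h.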
